A study of Mus musculus with 12 samples.

Results

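Solute carriers are membrane proteins that move small molecules and ions across the plasma membrane and the membranes of organelles, and their genes carry symbols made of Slc, a family number, letters and a member number. The 214 genes described here are the rows with such a symbol that had at least 10 raw counts in 3 or more of the 12 libraries. They came from 364 rows with a symbol of that form among the 40847 rows of the count table. Of the others, 143 fell under the minimum and 7 (Slc2a1, Slc16a3, Slc7a2, Slc7a11, Slc11a1, Slc11a2 and Slc40a1) were left out by name. The members were thus chosen by symbol and selected on their raw counts, so their levels are given as a description. By the count that ranks number 3 among a gene's 12 libraries, those just inside the minimum were Slc38a4 with 10 and Slc25a2 and Slc2a3, each with 11. Just outside stood Slc22a20 and Slc36a3, each with 9, and Slc1a2, Slc4a8 and Slc9b1, each with 8.

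The RNA came from fetal liver alveolar-like macrophages (FLAMs), mouse cells cultured from fetal liver that stand in for the macrophages of the lung's air spaces. Cells of all 12 libraries were grown in medium with mouse GM-CSF at 30 ng/ml. TGFβ was recombinant human TGFβ1, at 20 ng/ml in the medium, and Pam3 is Pam3CSK4, a lipopeptide that activates the receptor TLR2, given at 25 ng/ml for 18 h. The 4 groups were untreated cells (neither agent), cells with TGFβ, cells with Pam3, and cells with both (Pam3+TGFβ), with 3 libraries each. The study asked whether TGFβ changes how these macrophages answer TLR2 activation. The labels give no strain, donor or separate culture for the libraries, so every p measures the spread between libraries, which may be technical, and cultured FLAMs lack the other cells of the lung.

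Transporters of one substrate often work as relays: an importer in the plasma membrane, an exporter or importer of the lysosome or endosome, and a carrier of the inner mitochondrial membrane. Many run as exchangers or are driven by sodium or proton gradients, and some need a partner, as the amino acid transporters of the Slc7 family need the heavy chain encoded by Slc3a2 (CD98). In macrophages such transporters supply arginine, glutamine, cystine and glucose to activated cells, withhold or recycle zinc, copper, iron and haem, and carry bacterial peptides out of endolysosomes.

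Library totals ran from 34036650 to 44374115 counts, and the members took 1.17% to 1.27% of them. Levels are CPM, counts scaled to a common library total, with library sizes scaled by TMM. A list of 12 ribosomal and short non-coding RNAs took 5.02% to 8.27% of the counts in untreated replicate 3, TGFβ replicates 1 and 3 and Pam3 replicates 2 and 3, and 0.196% to 0.394% in both other untreated libraries, TGFβ replicate 2, Pam3 replicate 1 and Pam3+TGFβ replicate 1. It took 1.21% and 1.63% in Pam3+TGFβ replicates 3 and 2. Untreated replicate 3, TGFβ replicate 2 and Pam3 replicate 1 thus stand apart from the rest of their group. The 8 macrophage markers summed to 33910.2 to 37906 CPM untreated and 36244.0 to 37455 with Pam3, against 18370.2 to 19366 with TGFβ and 27261 to 27924 with Pam3+TGFβ. Lyz2 made up 28286 to 32247 CPM of it untreated and 14731 to 15612 with TGFβ. Spi1 overlapped between these groups, at 512 to 643 and 517 to 540.1 CPM. A list of 10 alveolar macrophage markers summed to 6152 to 6990.1 CPM untreated, 7193 to 7663 with TGFβ, 7579 to 7988 with Pam3 and 7502 to 7841 with both. Its members moved in opposite directions. With TGFβ, Marco was at 119 to 130 CPM against 1890 to 2422 untreated, and Fabp4 at 0.0741 to 0.166 against 30.0 to 32.2. Every other member was higher with TGFβ than untreated, such as Siglecf (289 to 307 against 30.1 to 34.3) and Chil3 (4827 to 5205 against 2859 to 3098). A list of 5 neutrophil genes, with Mpo at 0, summed to 13.1 to 15.5 CPM untreated and 15.8 to 16.1 with Pam3, against 3.14 to 4.96 with TGFβ and 4.77 to 5.38 with Pam3+TGFβ. Without TGFβ nearly all of it was S100a8, and with TGFβ most of it. S100a8 stood at 12.5 to 15.3 CPM untreated and 2.49 to 3.58 with TGFβ, while S100a9 was higher with TGFβ, at 0.655 to 1.38 against 0.114 to 0.526. The part of these lists in the TGFβ results below was not tested. Cd3e, Cd3g, Nkg7 and Ncr1 of the lymphoid list were at 0 in all libraries, as were Mpo, Hbb-bs, Ttr, Sftpc and Col1a2 of other lists. Afp of the hepatocyte list stood at 5.70 to 5.81 CPM untreated and 5.63 to 6.25 with TGFβ. It stood at 6.40 to 7.70 with Pam3 and 8.41 to 10.1 with both. Cpa3 of the mast cell list stood at 0.263 to 1.11 CPM untreated and 0.265 to 0.667 with Pam3. With TGFβ it was 0 to 0.0741 and with both 0 to 0.136. Pdgfra of the fibroblast list was at most 1.13 CPM in any library. The part of these genes in the results below was not tested. A list of 4 epithelial genes summed to 391.5 to 403 CPM with TGFβ and 256 to 265 with Pam3+TGFβ, against 159 to 182 untreated and 142 to 151 with Pam3. Cdh1 made up 389.9 to 401 CPM of it with TGFβ, and its part in the TGFβ results below was not tested. A list of 4 endothelial genes moved the other way, with 178 to 194 CPM with TGFβ and 119 to 135 with Pam3+TGFβ, against 286 to 302 untreated and 217 to 221 with Pam3. Nearly all of it was Vwf, and its part was not tested either.

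The members cover a wide range of levels. The mean over all libraries was under 1 CPM for 30 members, 1 to 10 CPM for 42, 10 to 100 CPM for 103 and 100 CPM or more for 39. The median member stood at 27.1 CPM, against 18.1 CPM over all 14749 tested genes. Levels per kilobase of exon compare genes only roughly, since the aligner named by the authors does not splice reads. The highest was Slc25a5, an exchanger of ADP and ATP in the inner mitochondrial membrane, at 207 CPM per kb. Next came the taurine importer Slc6a6 at 107, Slc3a2 at 69.1, the endolysosomal peptide and histidine transporter Slc15a3 at 62.8 and the mitochondrial citrate carrier Slc25a1 at 59.9 CPM per kb. Slc25a5 and its close relative Slc25a4 have similar sequences and many intronless copies, so their counts are uncertain. At the other end, 26 members were under 10 counts in at least 1 library, and 16 of these did not reach 10 counts in any library of at least 1 group.

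Of the 214 members, 213 passed the filter of the test, and the exception was Slc38a4. Differences are log2 fold changes with a standard error (SE), and a gene is called at an adjusted p under 0.05 over all 14749 genes. Without TGFβ, Pam3 changed 52 of 213 members (24.4%), 23 higher and 29 lower, while the test called 18.3% of all genes (9.62% higher, 8.66% lower). Without Pam3 replicate 2, the 29 became 18. With TGFβ in the medium, Pam3 changed 106 members (49.8%), 42 higher and 64 lower, against 38.5% of all genes (20.4% higher and 18.1% lower). TGFβ without Pam3 changed 132 members (62%), 42 higher and 90 lower, against 51% of all genes (22.9% higher and 28.1% lower). TGFβ with Pam3 changed 133 members (62.4%), 44 higher and 89 lower, against 45.3% of all genes (21.5% higher and 23.8% lower). The share called lower was 42.3% of members without Pam3 and 41.8% with Pam3, beside 28.1% and 23.8% of all genes. The members' median log2 fold changes for TGFβ were -0.17 and -0.15, against -0.01 and 0 over all genes, and for Pam3 they were -0.05 in both media, against 0 and -0.02.

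Most changes were small. Among called members, 6 had a log2 fold change of 1 or more in size with Pam3 alone, 16 with Pam3 in the presence of TGFβ, 24 with TGFβ alone and 22 with TGFβ in the presence of Pam3. Called members with a change under 0.5 numbered 32, 55, 68 and 70 in the same order. Both Pam3 responses come from separate libraries: of the 23 members that Pam3 raised without TGFβ, 21 (91.3%) also rose with TGFβ, where they made up 50% of the 42. Over all tested genes these shares were 82.6% and 39%. Of the 29 that fell without TGFβ, 21 (72.4%) also fell with TGFβ, 32.8% of the 64, near the 71% and 34% of all tested genes. For TGFβ, 27 members rose in both media (64.3% of 42 and 61.4% of 44) and 68 fell in both (75.6% of 90 and 76.4% of 89). The shares over all tested genes lay near these, at 62.8% and 67% for rising genes and 66.9% and 78.9% for falling ones.

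**Figure D1:**
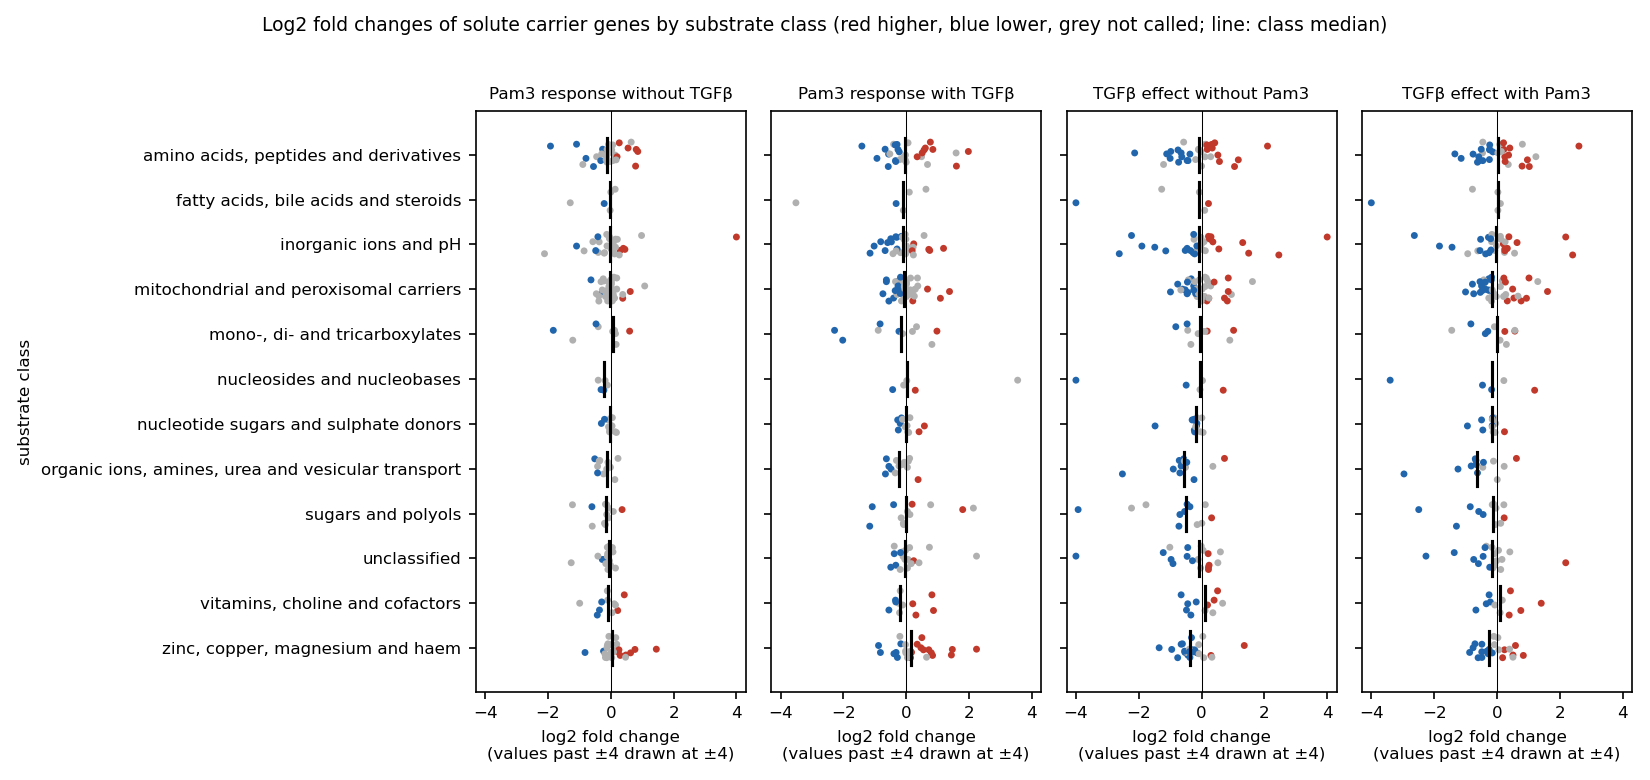
Log2 fold change (x axis, values beyond 4 drawn at 4) of each tested solute carrier gene, by substrate class (rows), for both Pam3 responses and both TGFβ effects; each point is a gene, red called higher, blue called lower, grey not called, and the black bar is the class median. Among called points in both TGFβ panels, blue outnumbers red for organic ions and amines, nucleotide sugars, sugars and metals, among other classes. Without Pam3, 9 of 13, 7 of 12, 6 of 12 and 17 of 26 were called lower in that order.

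By TGFβ without Pam3, zinc, copper, magnesium and haem transporters had 2 members called higher and 17 lower of 26, organic ion and amine transporters 1 and 9 of 13, sugar transporters 1 and 6 of 12, and nucleotide sugar transporters 0 and 7 of 12. Amino acid transporters had 10 higher and 11 lower of 31 tested, mitochondrial carriers 7 and 11 of 40, and inorganic ion transporters 10 and 12 of 30. The counts for Pam3 with TGFβ were 13 higher and 6 lower among the metal transporters, 8 and 11 among the amino acid transporters, 4 and 12 among the mitochondrial carriers and 5 and 11 among the inorganic ion transporters. Nucleotide sugar transporters had 2 and 4, organic ion and amine transporters 1 and 4, sugar transporters 2 and 3, and the 18 unclassified members 1 and 4. Over all tested genes, TGFβ without Pam3 called 22.9% higher and 28.1% lower, and Pam3 with TGFβ 20.4% and 18.1%. Of the members that TGFβ alone lowered, 15 of 17 metal transporters, 10 of 11 amino acid transporters, 9 of 11 mitochondrial carriers and 5 of 12 inorganic ion transporters kept the call in all 12 fits that left out 1 library. These counts are a description and were not tested against each other. They include members such as Slc9b2, Slc9c1 and Slc45a3, which passed the filter through the groups where they were high. The direction of such members was fixed by the filter.

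Summed levels give a view weighted by the abundant genes. The sugar transporters summed to 395 ± 18.6 CPM untreated (mean ± SD, n = 3), 201 ± 4.45 with TGFβ, 417 ± 10 with Pam3 and 224 ± 0.233 with Pam3+TGFβ. The metal transporters summed to 1699 ± 64.3, 1324 ± 23.1, 1885 ± 6.68 and 1669.7 ± 27 CPM in the same order. The sum of the carboxylate class rose along that order, from 241 ± 4.73 and 252 ± 10.5 to 306 ± 6.6 and 379.8 ± 7.58 CPM. That rise was carried by Slc16a10, which carries aromatic amino acids, and does not describe the class. Of its 10 members, Pam3 with TGFβ raised 1, Slc16a10, and lowered 4, beside 20.4% and 18.1% of all tested genes. The mitochondrial carriers stayed between 2057 ± 39.2 CPM with TGFβ and 2150.0 ± 89.4 untreated, and all 214 members together between 11307 ± 76.5 with TGFβ and 12769 ± 92.4 with Pam3. In bulk RNA, fewer cells that express a gene and less RNA of it per cell cannot be told apart.

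Among amino acid transporters, both genes of a CD98 pair, Slc3a2 and Slc7a8, had the largest increases with Pam3 in the presence of TGFβ, and both rose more there than without TGFβ. Slc3a2, the CD98 heavy chain (chromosome 19, 8684245 to 8701108, minus strand of GRCm39), measured 171, 217 and 185 CPM in the untreated libraries, 194, 193 and 185 with TGFβ, 320.4, 318 and 356 with Pam3 and 614, 552 and 565 with Pam3+TGFβ. All 3 Pam3 libraries lay above the untreated ones, the 3 with both agents were higher still, and TGFβ alone left the gene within the untreated range. The Pam3 response was 0.79 (adjusted p 8.61e-08, SE 0.069) without TGFβ and 1.6 (adjusted p 6.49e-13, SE 0.07) with it, and the interaction, the difference between these responses, was 0.8 (adjusted p 6.46e-06, SE 0.0971). Its partner Slc7a8 (LAT2, a light chain for neutral amino acids, chromosome 14, 54959630 to 55019649, minus strand of GRCm39) measured 142, 156 and 149.9 CPM in the untreated libraries, 67.8, 79.2 and 79 with TGFβ, 265, 261 and 287 with Pam3 and 313, 285 and 296 with Pam3+TGFβ. The TGFβ libraries were lowest, both Pam3 groups were highest, and the 4 groups overlapped only between those 2 groups. Slc7a8 fell with TGFβ alone by 0.98 on the log2 scale (adjusted p 4.57e-13, SE 0.0578), while with Pam3 the TGFβ effect was 0.14 (adjusted p 0.0513, SE 0.0561). Its interaction was 1.12 (adjusted p 2.15e-10, SE 0.0804), the second largest among called interactions of the members that reached 10 counts in each library.

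The other light chains moved differently. Slc7a5 (LAT1, for large neutral amino acids) measured 81.3, 80.3 and 70.7 CPM in the untreated libraries, 112, 115 and 118 with TGFβ, 74.6, 77.6 and 77.8 with Pam3 and 86.3, 93.2 and 95 with Pam3+TGFβ, so that it was highest with TGFβ alone and untreated and Pam3 libraries overlapped. TGFβ raised it by 0.57 (adjusted p 5.69e-09, SE 0.0578), and Pam3 lowered it in the presence of TGFβ by 0.33 (adjusted p 4.27e-05, SE 0.0575). Slc7a7, which exchanges cationic for neutral amino acids, measured 20.7, 21.7 and 22 CPM in the untreated libraries, 50.3, 45.9 and 48.2 with TGFβ, 23.8, 22.6 and 25.9 with Pam3 and 45.8, 42.9 and 53.1 with Pam3+TGFβ. Both TGFβ groups lay at about the same level above both groups without it. TGFβ raised Slc7a7 by 1.17 (adjusted p 2.41e-12, SE 0.0781) without Pam3 and 0.97 (adjusted p 8.76e-11, SE 0.0778) with it, and Pam3 called no change. The cationic transporter Slc7a1 rose with Pam3 in the presence of TGFβ, from 108 ± 8.01 to 138 ± 5.88 CPM, a log2 fold change of 0.35 (adjusted p 5.65e-05, SE 0.0611). Slc7a6, which like Slc7a7 exchanges cationic for neutral amino acids, rose with TGFβ alone by 0.42 (adjusted p 8.08e-06, SE 0.0673). Slc7a4, named after its values were seen, was 3.59 ± 0.74 CPM untreated and 1.66 ± 0.0116 with TGFβ, a fall of 1.11 on the log2 scale (adjusted p 0.000432, SE 0.243).

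Slc1a5 (ASCT2) stood at 150.1 ± 10, 187 ± 0.961, 143 ± 1.09 and 153 ± 8.65 CPM in untreated, TGFβ, Pam3 and Pam3+TGFβ cells, and TGFβ without Pam3 raised it by 0.32 (adjusted p 7.52e-06, SE 0.0504). Slc38a2 (SNAT2) rose with TGFβ in both media, by 0.52 (adjusted p 1.3e-09, SE 0.0482) without Pam3 and 0.37 (adjusted p 5.67e-07, SE 0.0481) with it. Slc38a1 (SNAT1) fell with Pam3 in the presence of TGFβ, from 209.7 ± 10.8 to 164 ± 13.2 CPM, by 0.35 (adjusted p 5.81e-05, SE 0.0605). Its TGFβ effect had opposite signs, 0.17 without Pam3 and -0.23 with it. The first of these had an adjusted p of 0.102 without untreated replicate 2 and 0.0692 without TGFβ replicate 2, and of 0.108 without the 3 libraries that stand apart. Slc43a2 (LAT4), an exporter of neutral amino acids, went from 285 ± 13.3 CPM with TGFβ to 179 ± 11 with both agents, a log2 fold change of -0.67 (adjusted p 1.92e-11, SE 0.0487).

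Slc6a6, the taurine importer (chromosome 6, 91660573 to 91736047, plus strand of GRCm39), measured 1497, 1372 and 1447 CPM in the untreated libraries, 1277, 1360.3 and 1385 with TGFβ, 1326, 1311 and 1326 with Pam3 and 1126, 1075 and 1156 with Pam3+TGFβ. It was lowest with both agents, where the Pam3 response was -0.26 (adjusted p 0.000268, SE 0.0528). Slc6a12, an importer of betaine and GABA, measured 37.3, 42.3 and 39.5 CPM in the untreated libraries, 45, 44.6 and 45.4 with TGFβ, 75.1, 60.7 and 73.4 with Pam3 and 81.7, 79.6 and 82.5 with Pam3+TGFβ. Both Pam3 groups lay above both groups without Pam3 and did not overlap them, with responses of 0.81 (adjusted p 2.7e-09, SE 0.0698) without TGFβ and 0.85 (adjusted p 1.8e-10, SE 0.0693) with it. The serotonin transporter Slc6a4 measured 41.2, 42.9 and 42.6 CPM in the untreated libraries, 89.8, 85.7 and 86.8 with TGFβ, 29.7, 27.1 and 29.5 with Pam3 and 55.4, 57.6 and 63 with Pam3+TGFβ. TGFβ raised it by 1.05 (adjusted p 1.51e-13, SE 0.0612) without Pam3 and 1.03 (adjusted p 4.09e-13, SE 0.0624) with it, and Pam3 lowered it by 0.55 and 0.57 (adjusted p 2.77e-07 and 1.91e-08). Its interaction, -0.02 (adjusted p 0.922, SE 0.0869), was not called. The creatine transporter Slc6a8 was lowest with TGFβ alone, at 32.2 ± 0.737 CPM against 54.2 ± 5.02 untreated, 55.4 ± 1.38 with Pam3 and 47.7 ± 1.26 with both, and its interaction was 0.53 (adjusted p 0.000117, SE 0.0916).

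Slc6a12 was one of 3 members called higher with Pam3 in the presence of TGFβ whose promoter held a match to the kappa B motif, the sequence bound by NF-κB, beside Slc6a13 and Slc39a1. The call of Slc6a13 ended in 4 of the 12 fits that left out 1 library, with an adjusted p up to 0.189, and under upper-quartile scaling (0.0513), no filter (0.0746) and without the 3 libraries that stand apart (0.133). Promoters were the 250 bases before and 50 bases after each annotated start in RefSeq (GRCm38.p6), which held 162 of the members, and both strands were searched. The motif occurred in 8.02% of these 162 members and in 7.99% of 11210 tested genes with such a window, and in 3 of 33 members called higher by Pam3 with TGFβ (9.09%), a share near that of all genes. The windows of Slc6a12 (chr6:121342324-121342623, plus strand, 1 of its 5 annotated starts) and Slc39a1 (chr3:90247942-90248241, plus strand), chosen after the matches were seen, are printed to show the letters matched, with the motif in capitals; the Slc39a1 match reads the same on both strands.
Slc6a12: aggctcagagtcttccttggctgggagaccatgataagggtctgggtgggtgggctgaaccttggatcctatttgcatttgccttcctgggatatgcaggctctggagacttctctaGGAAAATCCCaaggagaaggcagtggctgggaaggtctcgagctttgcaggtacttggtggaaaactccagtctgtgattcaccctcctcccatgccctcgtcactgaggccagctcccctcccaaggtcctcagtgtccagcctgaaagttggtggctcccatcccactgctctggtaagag
Slc39a1: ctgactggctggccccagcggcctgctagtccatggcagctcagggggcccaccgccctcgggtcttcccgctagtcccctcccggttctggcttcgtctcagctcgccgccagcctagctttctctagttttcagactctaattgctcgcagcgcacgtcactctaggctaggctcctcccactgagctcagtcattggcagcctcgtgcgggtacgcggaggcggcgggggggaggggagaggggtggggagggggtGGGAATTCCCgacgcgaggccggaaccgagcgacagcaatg
A match of letters describes the window and does not show binding.

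Slc15a3, which carries histidine and bacterial muramyl peptides out of endolysosomes, measured 227, 266 and 239 CPM in the untreated libraries, 305, 308 and 315 with TGFβ, 363, 349 and 359 with Pam3 and 488, 459 and 471 with Pam3+TGFβ. Each agent raised it and the combination was highest, with Pam3 responses of 0.55 (adjusted p 7.29e-09, SE 0.0501) and 0.61 (adjusted p 1.92e-10, SE 0.0501) and TGFβ effects of 0.34 and 0.41; its interaction, 0.06 (adjusted p 0.654, SE 0.0706), was not called. Its relative Slc15a4 instead fell with TGFβ, from 66.9 ± 2.07 to 40.2 ± 0.169 CPM, by 0.73 (adjusted p 2.26e-11, SE 0.0552), and Pam3 called no change in it. Slc46a3, a lysosomal transporter, measured 16.6, 16.3 and 17.3 CPM in the untreated libraries, 8.16, 9.61 and 7.36 with TGFβ, 9.29, 11.3 and 8.45 with Pam3 and 4.45, 3.83 and 4.86 with Pam3+TGFβ. Pam3 and TGFβ each lowered it, by log2 fold changes of -0.79 (adjusted p 1.86e-05, SE 0.118) and -1.0 (adjusted p 9.95e-08, SE 0.119), and the libraries with both agents were lowest. The lysosomal amino acid exporter Slc36a1 stood at 143 ± 5.65 CPM untreated and 75 ± 3.47 with both agents, with a TGFβ effect of -0.76 (adjusted p 6.48e-11, SE 0.0597) in the presence of Pam3. Slc38a9, the lysosomal arginine sensor of the mTORC1 pathway, fell with TGFβ by 0.43 without Pam3 and 0.45 with it (adjusted p 7.08e-05 and 4.84e-05).

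Slc36a2, a proton-coupled importer of small amino acids, had the largest TGFβ increase among members that reached 10 counts in each library. It measured 2.68, 2.53 and 1.54 CPM in the untreated libraries, 8.77, 9.48 and 10.7 with TGFβ, 0.468, 0.77 and 0.54 with Pam3 and 3.29, 3.83 and 3.79 with Pam3+TGFβ. All 4 groups were apart from each other, with TGFβ alone highest and Pam3 alone lowest. TGFβ raised it by 2.1 (adjusted p 6.79e-10, SE 0.188) without Pam3 and 2.61 (adjusted p 8.14e-10, SE 0.234) with it, and Pam3 lowered it by 1.92 (adjusted p 1.67e-06, SE 0.244) and by 1.41 (adjusted p 5.18e-07, SE 0.18). Its interaction of 0.51 (adjusted p 0.305, SE 0.306) was not called. Slc38a6, named after its values were seen, fell with TGFβ alone from 64.6 ± 4.94 to 41.1 ± 2.4 CPM and stood at 58.8 ± 3.43 with both agents, with an interaction of 0.68 (adjusted p 6.11e-06, SE 0.0943).

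**Figure D2:**
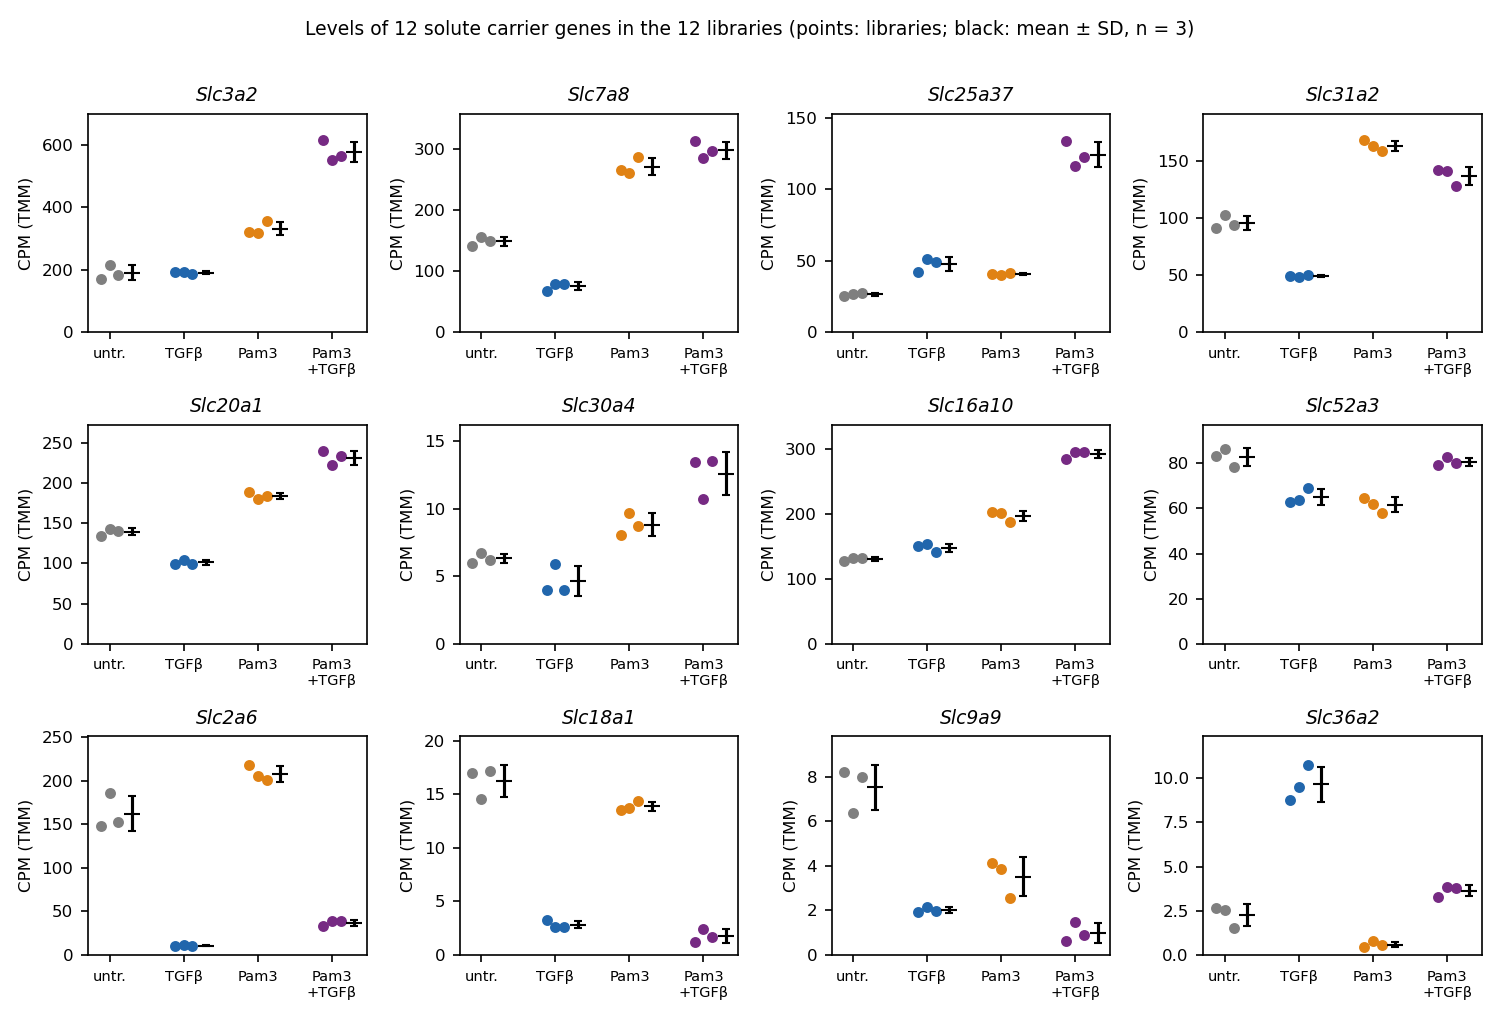
CPM (y axis, TMM-scaled, from 0) of 12 solute carrier genes in each library by group (x axis); points are libraries and the black bar is the mean ± SD of 3. In the upper 2 rows the mean with both agents is the highest for 6 of the 8 genes, while Slc31a2 is highest with Pam3 alone and Slc52a3 in untreated cells. In the lowest row TGFβ lowers Slc2a6, Slc18a1 and Slc9a9 and raises Slc36a2, with and without Pam3.

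TGFβ lowered 6 of 12 sugar transporters without Pam3 and 5 with it, beside 28.1% and 23.8% of all tested genes. Of the 6, 5 kept the call in all 12 fits that left out 1 library and 4 without the 3 libraries that stand apart. Slc2a6 carried most of the fall in their summed level. Slc2a6 (GLUT6, a hexose transporter family member of internal membranes, chromosome 2, 26911226 to 26918092, minus strand of GRCm39) measured 148, 185 and 152 CPM in the untreated libraries, 10.7, 10.9 and 10.3 with TGFβ, 218, 205 and 200.3 with Pam3 and 32.7, 39.1 and 39.1 with Pam3+TGFβ. The 6 libraries without TGFβ all lay above the 6 with it, and among the latter those with Pam3 were higher. TGFβ changed it by -3.93 (adjusted p 6.22e-19, SE 0.088) without Pam3 and -2.49 (adjusted p 3.24e-16, SE 0.0796) with it, the first being the largest fall among members that reached 10 counts in each library. Pam3 raised it by 0.36 (adjusted p 0.0014, SE 0.0741) without TGFβ and 1.8 (adjusted p 3.59e-13, SE 0.0859) with it, and its interaction was 1.44 (adjusted p 6.78e-09, SE 0.113). Slc2a6 was the largest called interaction with a higher Pam3 response among members. Slc2a8 (GLUT8), another intracellular member, measured 15, 16.6 and 15.4 CPM in the untreated libraries, 12.5, 11.6 and 12.1 with TGFβ, 10.8, 11.2 and 8.86 with Pam3 and 5.29, 4.95 and 6.78 with Pam3+TGFβ. It was lowest with both agents, and Pam3 lowered it by 0.6 (adjusted p 0.000263, SE 0.112) without TGFβ and by 1.08 (adjusted p 3.67e-08, SE 0.118) with it.

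The urate transporter Slc2a9 fell with TGFβ from 13 ± 0.677 to 8.06 ± 0.614 CPM, by 0.69 (adjusted p 1.7e-06, SE 0.0984). Slc37a2, a sugar phosphate exchanger of the endoplasmic reticulum, fell with TGFβ alone from 95.5 ± 4.44 to 69.2 ± 4.07 CPM (log2 fold change -0.46, adjusted p 4.39e-07, SE 0.0606) and stood at 79.2 ± 6.2 with both agents, where the TGFβ effect was not called (log2 fold change -0.1, adjusted p 0.169, SE 0.0605). Slc37a4, its relative that carries glucose 6-phosphate and is named after its values were seen, was the 1 sugar transporter called higher with TGFβ in both media, by 0.32 (adjusted p 0.00146, SE 0.0787) and 0.23 (adjusted p 0.0197, SE 0.0794). The second of these had an adjusted p of 0.0585 without Pam3 replicate 3 and 0.0622 without Pam3+TGFβ replicate 2. Slc5a11, an inositol importer, went from 1.52 ± 0.174 CPM with TGFβ to 0.679 ± 0.0694 with both agents (log2 fold change -1.16, adjusted p 0.00156, SE 0.278). Slc50a1, a glucose exporter family member, had no called change and means from 20 ± 1.53 to 23 ± 0.665 CPM. The glucose importer Slc2a3 (GLUT3) was near the count minimum, with counts of 16, 9 and 7 untreated and at most 12 in any other library.

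Mitochondrial carriers were the largest class, with 40 members and medians from -0.16 to -0.02 in the 4 main comparisons. Slc25a37 (mitoferrin 1, which brings iron into mitochondria, chromosome 14, 69479297 to 69522561, minus strand of GRCm39) measured 25.4, 26.5 and 27.7 CPM in the untreated libraries, 42.3, 51.6 and 49.4 with TGFβ, 40.5, 40.1 and 41.7 with Pam3 and 133, 116 and 123 with Pam3+TGFβ. Each agent alone raised it, and the libraries with both lay far above the others. Pam3 responses were 0.62 (adjusted p 3.53e-07, SE 0.0712) without TGFβ and 1.38 (adjusted p 1.25e-14, SE 0.0692) with it, TGFβ effects 0.85 (adjusted p 1.65e-10, SE 0.0709) and 1.61 (adjusted p 5.32e-16, SE 0.0699), and the interaction 0.76 (adjusted p 2.64e-06, SE 0.0985). Mitoferrin 2, Slc25a28, named after its values were seen, rose with TGFβ by 0.82 (adjusted p 2.72e-08, SE 0.09) without Pam3 and 0.77 (adjusted p 1.1e-07, SE 0.091) with it, and showed no called Pam3 response (-0.1 and -0.15). Slc25a22, a glutamate carrier, measured 47.5, 46.4 and 47.8 CPM in the untreated libraries, 52.2, 54.9 and 59.4 with TGFβ, 61.1, 59.5 and 63.7 with Pam3 and 116, 114 and 125 with Pam3+TGFβ. It was highest with both agents, with Pam3 responses of 0.38 (adjusted p 3.2e-05, SE 0.0592) and 1.09 (adjusted p 5.17e-14, SE 0.0587) and an interaction of 0.71 (adjusted p 4.84e-07, SE 0.083).

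TGFβ raised the citrate carrier Slc25a1 from 108 ± 11.4 to 179.6 ± 9.27 CPM without Pam3 (log2 fold change 0.73, adjusted p 1.55e-10, SE 0.06) and from 117 ± 2.6 to 171 ± 7.33 with it (log2 fold change 0.54, adjusted p 4.04e-08, SE 0.0599). The oxoglutarate carrier Slc25a11 rose slightly, by 0.17 and 0.33 (adjusted p 0.00445 and 3.37e-06). The pyrimidine nucleotide carrier Slc25a33 rose from 5.09 ± 1.07 to 9.18 ± 1.44 CPM (log2 fold change 0.85, adjusted p 0.000168, SE 0.164). Of the aspartate and glutamate exchangers, both named after their values were seen, Slc25a13 fell by 0.99 and 1.0 (adjusted p 5.82e-11 and 9.01e-11) and Slc25a12 by 0.44 and 0.53 (adjusted p 2.62e-07 and 1.18e-08) with TGFβ without and with Pam3. The ADP and ATP exchanger Slc25a5 had no called change in any comparison, with means from 345 ± 19.9 to 388 ± 21 CPM, while Slc25a4 fell with TGFβ alone by 0.52 (adjusted p 5.84e-09, SE 0.0521). The dicarboxylate carrier Slc25a10 had a Pam3 response of -0.24 (adjusted p 0.0364, SE 0.0884) with TGFβ, with an adjusted p of 0.056 without Pam3 replicate 2, 0.141 without Pam3+TGFβ replicate 1, 0.0551 without Pam3+TGFβ replicate 3 and 0.0818 without TGFβ replicate 1.

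Slc16a10 belongs to the monocarboxylate transporter family and carries aromatic amino acids (chromosome 10, 39909448 to 40018304, minus strand of GRCm39). It measured 127, 132 and 133 CPM in the untreated libraries, 150.4, 153 and 142 with TGFβ, 203, 201 and 188 with Pam3 and 286, 296 and 297 with Pam3+TGFβ. The 4 groups did not overlap and followed the order untreated, TGFβ, Pam3, Pam3+TGFβ. Pam3 responses were 0.6 (adjusted p 2.55e-10, SE 0.0449) without TGFβ and 0.98 (adjusted p 2.05e-15, SE 0.0449) with it, and the interaction was 0.38 (adjusted p 7e-05, SE 0.0631). The lactate and pyruvate transporter Slc16a1 had a Pam3 response of 0.08 without TGFβ, which was not called, and of -0.23 (adjusted p 0.0182, SE 0.0747) with TGFβ. The latter had an adjusted p of 0.103 without TGFβ replicate 1. Slc16a6 (MCT7) fell with TGFβ in the presence of Pam3, from 37 ± 2.19 to 28.6 ± 2.13 CPM (log2 fold change -0.37, adjusted p 0.000275, SE 0.0765). Slc16a7 (MCT2) was lowered by each agent, from 25.6 ± 2.37 CPM untreated to 18.6 ± 1.51 with TGFβ, 18.5 ± 1.11 with Pam3 and 10.4 ± 1.4 with both. Slc16a14, a member with no known substrate, had counts of 44, 50 and 41 untreated, 85, 99 and 91 with TGFβ, 9, 11 and 15 with Pam3 and 27, 11 and 18 with both. It fell with Pam3 in both media, by 1.83 and 2.28 on the log2 scale (adjusted p 0.00155 and 1.98e-05). Slc13a3, an importer of dicarboxylates such as succinate and itaconate, was low throughout (0.461 ± 0.107 CPM untreated). It passed the filter through the groups without Pam3, so no fold is given.

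Inorganic ion transporters moved in both directions. Slc20a1, the phosphate importer PiT1 (chromosome 2, 129040256 to 129053536, plus strand of GRCm39), measured 135, 143 and 141 CPM in the untreated libraries, 99.7, 105 and 99.6 with TGFβ, 188, 180.1 and 184 with Pam3 and 239.9, 222 and 233 with Pam3+TGFβ. The 4 groups did not overlap: TGFβ alone was lowest and both agents together highest. TGFβ lowered it by 0.46 without Pam3 (adjusted p 3.72e-09, SE 0.0456) and raised it by 0.33 (adjusted p 9.24e-07, SE 0.045) with Pam3. Pam3 responses were 0.4 (adjusted p 2.92e-07, SE 0.0453) without and 1.19 (adjusted p 6.28e-17, SE 0.0458) with TGFβ, and the interaction was 0.8 (adjusted p 8.39e-10, SE 0.0641). Its relative Slc20a2, named after its values were seen, went the other way and rose with TGFβ alone (log2 fold change 0.55, adjusted p 4.7e-05, SE 0.0987). Slc4a7, a sodium bicarbonate importer that takes part in acidifying the phagosome, measured 73.9, 58.4 and 73.7 CPM in the untreated libraries, 65, 73.9 and 68.8 with TGFβ, 95.2, 92.2 and 93.6 with Pam3 and 119, 104 and 118 with Pam3+TGFβ. Both Pam3 groups lay above both groups without Pam3, with responses of 0.45 (adjusted p 0.000203, SE 0.0771) and 0.72 (adjusted p 1.39e-07, SE 0.077).

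Sodium and proton exchangers of the Slc9 family had 10 members, of which TGFβ raised 5 and lowered 4 without Pam3 and raised 4 and lowered 3 with it. Over all tested genes the shares were 22.9% and 28.1% without Pam3 and 21.5% and 23.8% with it. In all 12 fits that left out 1 library, 3 of the 5 and 3 of the 4 kept the call, and 2 of the 4 and 3 of the 3 with Pam3. Slc9a9 (NHE9, of endosomes) measured 8.21, 6.38 and 7.98 CPM in the untreated libraries, 1.91, 2.17 and 1.96 with TGFβ, 4.14, 3.88 and 2.54 with Pam3 and 0.611, 1.47 and 0.881 with Pam3+TGFβ. Each agent lowered it, with TGFβ effects of -1.9 (adjusted p 9.87e-08, SE 0.224) and -1.83 (adjusted p 1.07e-06, SE 0.249) and Pam3 responses of -1.09 (adjusted p 0.000558, SE 0.214) and -1.02 (adjusted p 0.00243, SE 0.258). TGFβ lowered Slc9a4 from 5.14 ± 0.245 to 1.82 ± 0.263 CPM without Pam3 (log2 fold change -1.49, adjusted p 4.02e-08, SE 0.169) and from 5.72 ± 0.282 to 2.12 ± 0.0967 with it (log2 fold change -1.43, adjusted p 7.49e-08, SE 0.166). The raised members include Slc9b2 and Slc9c1, which passed the filter through the groups with TGFβ. Such genes could only be called higher with TGFβ, so their calls do not count as support, and no fold is given. Slc9b2 had counts of 8, 6 and 8 untreated, 44, 35 and 44 with TGFβ, 6, 10 and 9 with Pam3 and 33, 52 and 63 with both. Slc9c1 had no count in the untreated libraries and 23, 20 and 16 with TGFβ, and its counts with Pam3 were 1, 8 and 2 and with both agents 22, 24 and 7.

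Slc12a7 (KCC4) had a Pam3 response of -0.3 (adjusted p 1.05e-06, SE 0.0404) with TGFβ, and Slc12a4 (KCC1), named after its values were seen, of 0.75 (adjusted p 7.85e-11, SE 0.0586), in the opposite direction. Slc8b1, the sodium and calcium exchanger of mitochondria, stood at 97.9 ± 4.44, 116 ± 6.54, 95.2 ± 4.64 and 82.9 ± 3.44 CPM in untreated, TGFβ, Pam3 and Pam3+TGFβ cells. Its TGFβ effect was 0.25 (adjusted p 0.00061, SE 0.0563) without Pam3 and -0.2 (adjusted p 0.00537, SE 0.0566) with it, the latter with an adjusted p of 0.0559 without Pam3 replicate 1. Slc26a10 rose with TGFβ from 2.5 ± 0.179 to 6.2 ± 0.916 CPM (log2 fold change 1.31, adjusted p 6.53e-07, SE 0.175). Slc12a2 (NKCC1), a sodium, potassium and chloride importer, fell with TGFβ in the presence of Pam3, from 7.62 ± 0.106 to 5.31 ± 0.562 CPM (log2 fold change -0.52, adjusted p 0.00184, SE 0.131). Slc4a3, a chloride and bicarbonate exchanger of low counts, had counts of 14, 39 and 15 untreated, 1, 5 and 8 with TGFβ, 49, 42 and 33 with Pam3 and 3, 13 and 5 with both, and reached the minimum through the groups without TGFβ. Slc26a9, an anion transporter, rose with TGFβ alone from 0.803 ± 0.0206 to 2.27 ± 0.475 CPM (log2 fold change 1.5, adjusted p 0.000704, SE 0.344) and fell again with Pam3 in the presence of TGFβ (log2 fold change -1.15, adjusted p 0.00814, SE 0.337).

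TGFβ without Pam3 lowered 17 of 26 metal transporters, and Pam3 in the presence of TGFβ raised 13. The share of tested genes called in these directions was 28.1% and 20.4%. Under upper-quartile scaling 3 of those 13 (Slc30a7, Slc30a9 and Slc39a6) were not called. Both copper transporters rose with Pam3. Slc31a1 (CTR1) measured 95.3, 109 and 101 CPM in the untreated libraries, 77.8, 77.5 and 73.3 with TGFβ, 165, 157 and 151 with Pam3 and 140.4, 129 and 129 with Pam3+TGFβ. Its relative Slc31a2 (CTR2, chromosome 4, 62180799 to 62220050, plus strand of GRCm39) measured 91.1, 103 and 93.8 CPM in the untreated libraries, 49.6, 48.6 and 50.5 with TGFβ, 168, 163 and 159 with Pam3 and 142, 141 and 128 with Pam3+TGFβ. In both genes the Pam3 groups lay above the groups without Pam3, and TGFβ alone was lowest. Slc31a1 had Pam3 responses of 0.63 (adjusted p 3.92e-09, SE 0.0555) and 0.8 (adjusted p 8.52e-12, SE 0.0559), and Slc31a2 of 0.77 (adjusted p 8.85e-11, SE 0.0543) and 1.47 (adjusted p 5.16e-17, SE 0.0558). TGFβ without Pam3 lowered them by 0.42 and 0.95 (adjusted p 6.71e-07 and 1.51e-13). The interaction of Slc31a2 was 0.7 (adjusted p 1.77e-07, SE 0.0771), and that of Slc31a1, 0.17 (adjusted p 0.163, SE 0.0784), was not called.

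The Slc30 family, which moves zinc out of the cytosol, had 6 members. Pam3 with TGFβ raised 5 of them (20.4% of all tested genes were called higher), and TGFβ without Pam3 lowered 5 (28.1% lower). Of these, 3 and 3 kept the call in all 12 fits that left out 1 library. Slc30a9, named after its values were seen, lost the first call in 7 of them (adjusted p up to 0.277), and Slc30a5, chosen likewise, lost the second in 8 (up to 0.194). Slc30a4 (ZnT4) measured 6.00, 6.71 and 6.22 CPM in the untreated libraries, 3.96, 5.9 and 4.01 with TGFβ, 8.06, 9.69 and 8.71 with Pam3 and 13.5, 10.7 and 13.6 with Pam3+TGFβ. With both agents it was above all other libraries, and TGFβ alone was below the untreated libraries. Its Pam3 response with TGFβ was 1.44 (adjusted p 5.55e-09, SE 0.141) and its interaction 0.96 (adjusted p 0.00103, SE 0.198). The response without TGFβ, 0.48 (adjusted p 0.0159, SE 0.14), had an adjusted p of 0.0973 without Pam3 replicate 2 and 0.0678 without untreated replicate 1. The fall with TGFβ alone, -0.44 (adjusted p 0.0132, SE 0.146), had an adjusted p of 0.107 without TGFβ replicate 1 and 0.106 without TGFβ replicate 3. Slc30a6, named after its values were seen, had the same order of group means at higher levels, with 19.2 ± 0.845, 15.6 ± 0.334, 21.7 ± 0.479 and 25.6 ± 1.08 CPM and an interaction of 0.54 (adjusted p 0.00071, SE 0.107). Slc30a1 (ZnT1), the zinc exporter of the plasma membrane, fell with TGFβ alone from 30.8 ± 0.805 to 19.7 ± 1.42 CPM (log2 fold change -0.65, adjusted p 1.31e-07, SE 0.0784) and rose with Pam3 in the presence of TGFβ to 25.1 ± 1.32 CPM (log2 fold change 0.35, adjusted p 0.000816, SE 0.0788).

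The promoters of Slc30a1 and Slc30a4 hold the core letters of the metal response element, TGCACNC or TGCGCNC, to which the zinc sensor MTF1 binds, searched on both strands. Such letters stood in 12 of 22 metal transporter promoters (54.5%), 42% of the 162 members' promoters and 38.4% of those of 11210 tested genes, so they are common. Both windows, chosen after the matches were seen, are printed with the matches in capitals, where the reverse strand reads GNGTGCA or GNGCGCA: Slc30a1 (chr1:191906531-191906830, plus strand, 2 matches) and Slc30a4 (chr2:122702614-122702913, minus strand, 3 matches), both of GRCm38.p6 from RefSeq.
Slc30a1: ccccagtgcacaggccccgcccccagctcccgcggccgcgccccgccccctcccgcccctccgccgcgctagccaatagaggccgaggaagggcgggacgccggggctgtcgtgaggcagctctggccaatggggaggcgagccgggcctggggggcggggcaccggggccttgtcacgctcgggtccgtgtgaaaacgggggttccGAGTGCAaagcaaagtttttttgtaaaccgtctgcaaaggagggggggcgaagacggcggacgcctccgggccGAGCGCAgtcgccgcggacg
Slc30a4: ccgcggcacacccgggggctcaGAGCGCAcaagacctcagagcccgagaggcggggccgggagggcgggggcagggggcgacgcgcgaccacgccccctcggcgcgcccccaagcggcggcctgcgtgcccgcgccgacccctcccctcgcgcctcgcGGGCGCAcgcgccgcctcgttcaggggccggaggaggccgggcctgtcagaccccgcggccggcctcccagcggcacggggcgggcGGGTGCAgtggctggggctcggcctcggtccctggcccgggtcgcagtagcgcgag
In the list of 17 tested genes of metal handling outside the solute carriers, Pam3 with TGFβ raised 5 and lowered 3, and TGFβ without Pam3 raised 7 and lowered 4, while the shares of all tested genes were 20.4% and 18.1%, and 22.9% and 28.1%. Mt2, a metallothionein that binds zinc and copper, stood at 62.3 ± 7.85, 76.5 ± 3.56, 62.1 ± 2.72 and 108 ± 13.3 CPM in untreated, TGFβ, Pam3 and Pam3+TGFβ cells. Mt1, another metallothionein, measured 216 ± 26.7 CPM untreated, 279 ± 10.7 with TGFβ, 198 ± 2.13 with Pam3 and 288 ± 16.9 with both. Pam3 with TGFβ raised Mt2 by 0.50 (adjusted p 0.000134), while the response of Mt1, 0.05 (adjusted p 0.63), was not called. Mt3 was below 1 CPM, with none in either TGFβ group.

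The Slc39 family, which moves zinc into the cytosol, had 14 members, of which TGFβ without Pam3 raised 2 and lowered 7, against 22.9% and 28.1% of all tested genes. All 9 kept the call in every fit that left out 1 library. Slc39a14 (ZIP14, for zinc, iron and manganese) measured 59.9, 60.5 and 61.2 CPM in the untreated libraries, 71.6, 78.4 and 73.7 with TGFβ, 75.8, 69.1 and 78.3 with Pam3 and 140, 123 and 137 with Pam3+TGFβ. Each agent alone raised it and both together more, with Pam3 responses of 0.3 (adjusted p 0.000764, SE 0.0603) and 0.84 (adjusted p 1.4e-11, SE 0.0598) and an interaction of 0.54 (adjusted p 3.75e-05, SE 0.0847). Its relative Slc39a8 (ZIP8) measured 2.58, 3.44 and 3.45 CPM in the untreated libraries, 9.41, 7.56 and 7.39 with TGFβ, 2.42, 3.56 and 2.8 with Pam3 and 5.53, 3.21 and 4.49 with Pam3+TGFβ, and TGFβ without Pam3 raised it by 1.36 (adjusted p 1.17e-06, SE 0.188). In the presence of TGFβ, Pam3 lowered Slc39a8 by 0.88 (adjusted p 0.000361, SE 0.183). Slc39a4 (ZIP4) was low but had the largest Pam3 increase among members that reached 10 counts in each library, with 0.395, 1.37 and 1.11 CPM in the untreated libraries, 0.692, 0.741 and 0.76 with TGFβ, 1.87, 3.08 and 2.95 with Pam3 and 3.52, 3.8 and 3.07 with Pam3+TGFβ. Both Pam3 groups were above both others, and the responses were 1.45 (adjusted p 0.0016, SE 0.317) and 2.24 (adjusted p 3.44e-06, SE 0.324).

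Slc39a2, named after its values were seen, measured 44.6, 50.1 and 45.3 CPM in the untreated libraries, 19.4, 17.9 and 17.8 with TGFβ, 41.1, 44.2 and 43.6 with Pam3 and 25.6, 24.4 and 26.2 with Pam3+TGFβ, so that the 6 libraries with TGFβ lay below the 6 without it. TGFβ changed it by -1.35 (adjusted p 2.02e-14, SE 0.0709) without Pam3 and -0.76 (adjusted p 1.28e-09, SE 0.0697) with it. Slc39a10 fell from 42.3 ± 3.28 CPM untreated to 29.3 ± 2.14 with TGFβ and 23.5 ± 0.784 with both agents. Slc39a1 (ZIP1), the most abundant of the family per kilobase at 57.6 CPM per kb, rose with Pam3 from 229.9 ± 15.9 to 276 ± 5.16 CPM without TGFβ (log2 fold change 0.26, adjusted p 8.44e-05, SE 0.0444) and from 198 ± 2.27 to 289 ± 7.22 with it (log2 fold change 0.55, adjusted p 1.82e-10, SE 0.0445). Slc39a7 (ZIP7), which releases zinc from the endoplasmic reticulum, fell with TGFβ, by log2 fold changes of -0.25 (adjusted p 0.000909, SE 0.0587) without Pam3 and -0.25 (adjusted p 0.000899, SE 0.0587) with it. Slc48a1, which carries haem out of the phagolysosome, measured 196, 229 and 196 CPM in the untreated libraries, 129, 120 and 117 with TGFβ, 189.6, 193 and 186 with Pam3 and 125, 125 and 126 with Pam3+TGFβ. Both TGFβ groups lay below both groups without it, with TGFβ effects of -0.76 (adjusted p 8e-12, SE 0.0542) and -0.6 (adjusted p 9.6e-10, SE 0.0542), and Pam3 responses of -0.13 and 0.04 were not called.

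**Figure D3:**
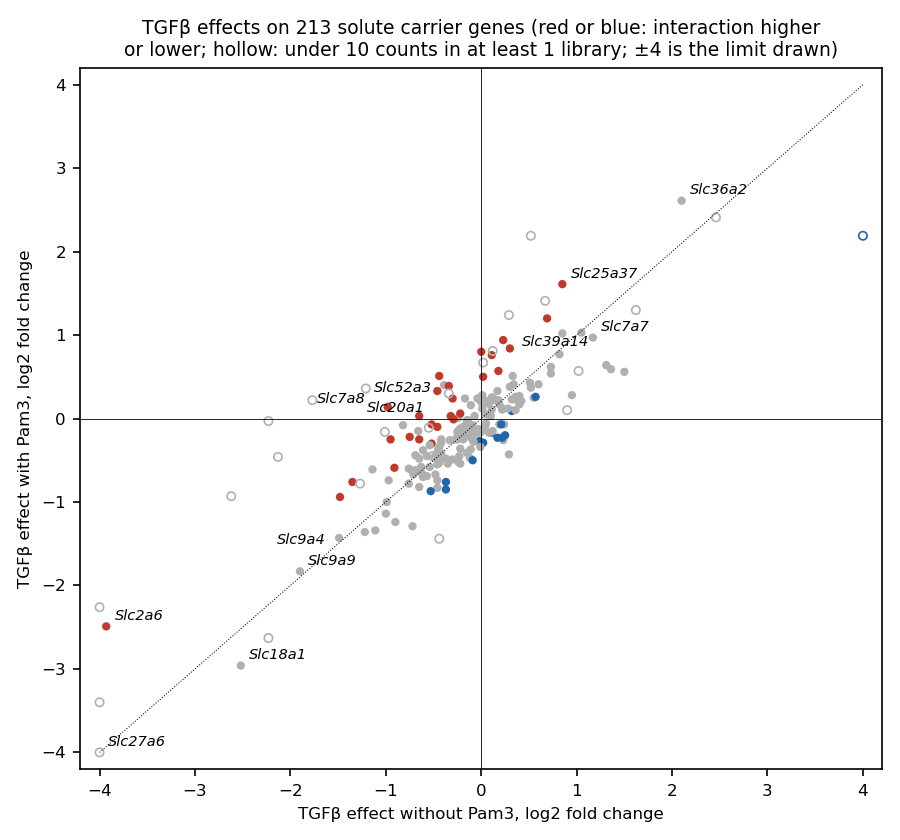
Log2 fold change by TGFβ without Pam3 (x axis) and with Pam3 (y axis) for 213 solute carrier genes; points are genes, red or blue where the interaction was called higher or lower, hollow where at least 1 library had under 10 counts, and values beyond 4 are drawn at 4. Most points lie along the dotted line of equal effects, from Slc2a6 and Slc18a1 at the lower left to Slc36a2 at the upper right, and Slc20a1 and Slc52a3 are lower without Pam3 and higher with it.

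TGFβ lowered 9 of 13 carriers of organic ions and amines without Pam3 and 8 with it, beside 28.1% and 23.8% of all tested genes. Of the 9, 6 kept the call in all 12 fits that left out 1 library, as did all 8. Slc18a1 (VMAT1, which loads monoamines into vesicles, chromosome 8, 69490135 to 69541887, minus strand of GRCm39) measured 17, 14.6 and 17.2 CPM in the untreated libraries, 3.24, 2.62 and 2.65 with TGFβ, 13.5, 13.8 and 14.4 with Pam3 and 1.22, 2.44 and 1.67 with Pam3+TGFβ. The 6 libraries with TGFβ were all below the 6 without it, with effects of -2.52 (adjusted p 2.24e-13, SE 0.148) without Pam3 and -2.96 (adjusted p 4.58e-14, SE 0.158) with it. Slc18a2 (VMAT2), named after its values were seen, was the 1 member of the class that TGFβ raised, from 2.86 ± 0.492 to 4.75 ± 0.684 CPM (log2 fold change 0.73, adjusted p 0.00104, SE 0.174). Slc17a5 (sialin), which exports sialic acid from lysosomes, measured 36.3, 33.7 and 34.4 CPM in the untreated libraries, 22.6, 24.1 and 23.5 with TGFβ, 25, 24.2 and 23.9 with Pam3 and 14.9, 13.7 and 16.7 with Pam3+TGFβ. Each agent lowered it, by 0.51 for Pam3 and 0.57 for TGFβ when given alone (adjusted p 2.45e-05 and 9.76e-07), and both together were lowest. The carnitine transporter Slc22a5 fell with TGFβ by 0.47 and 0.43 (adjusted p 6.58e-05 and 0.00022), and its neighbour Slc22a21, named after its values were seen, by 0.62 and 0.66. Their sequences are alike, so the split of reads between them is uncertain. The first fall of Slc22a21 had an adjusted p of 0.0522 without untreated replicate 1, and of 0.054 without the 3 libraries that stand apart. Slc22a18 fell with TGFβ from 9.55 ± 1.3 to 5.93 ± 0.199 CPM (log2 fold change -0.69, adjusted p 0.000208, SE 0.141). The ergothioneine transporter Slc22a4 had a Pam3 response of 0.38 (adjusted p 0.00161, SE 0.091) with TGFβ. Its fall with TGFβ alone lost the call in 6 of those 12 fits, with an adjusted p up to 0.287.

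Slc52a3, an importer of riboflavin (chromosome 2, 151838426 to 151852027, plus strand of GRCm39), measured 83.3, 86.4 and 78.3 CPM in the untreated libraries, 62.8, 63.5 and 69.1 with TGFβ, 64.8, 61.7 and 58.1 with Pam3 and 79.4, 82.7 and 80.1 with Pam3+TGFβ. Each agent alone was below the untreated range, and the libraries with both agents overlapped it. Pam3 lowered Slc52a3 without TGFβ by 0.43 (adjusted p 6.02e-06, SE 0.0588) and raised it with TGFβ by 0.31 (adjusted p 0.000123, SE 0.0587). TGFβ lowered it without Pam3 by 0.34 (adjusted p 2.19e-05, SE 0.0587) and raised it with Pam3 by 0.39 (adjusted p 4.46e-06, SE 0.0588), and the interaction was 0.74 (adjusted p 2.78e-07, SE 0.0831). The vitamin C importer Slc23a2 measured 148, 129.6 and 146 CPM in the untreated libraries, 145, 161 and 152 with TGFβ, 163, 157 and 174 with Pam3 and 301, 256 and 282 with Pam3+TGFβ. The libraries with both agents lay above all others, with a Pam3 response of 0.87 (adjusted p 4.02e-11, SE 0.0605) and an interaction of 0.65 (adjusted p 5.27e-06, SE 0.0853). Slc44a1, a choline transporter, measured 65.4, 64.8 and 72.1 CPM in the untreated libraries, 47.2, 41.7 and 40.3 with TGFβ, 92.4, 91 and 88.7 with Pam3 and 84.4, 72.2 and 71.6 with Pam3+TGFβ, lowest with TGFβ alone and highest with Pam3 alone. Its Pam3 responses were 0.43 (adjusted p 4.64e-05, SE 0.0688) and 0.82 (adjusted p 4.63e-10, SE 0.0698), and its interaction was 0.39 (adjusted p 0.00587, SE 0.0977), or 0.32 (adjusted p 0.0796) without the 3 libraries that stand apart. The choline transporter family member Slc44a2 fell with Pam3 in both media, by 0.29 and 0.33 (adjusted p 0.00303 and 0.000358). Slc46a1, the proton-coupled folate importer, had no called change. Slc19a1, the folate carrier that also imports cyclic dinucleotides, rose with TGFβ alone from 17.9 ± 0.704 to 23.7 ± 1.72 CPM (log2 fold change 0.4, adjusted p 0.000605, SE 0.0909).

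Nucleoside and nucleobase transporters numbered 5. Slc43a3, an importer of purine bases, measured 47.7, 52.5 and 47.1 CPM in the untreated libraries, 76.9, 79.2 and 81.7 with TGFβ, 42.4, 40.7 and 43.4 with Pam3 and 94.5, 101 and 94.8 with Pam3+TGFβ. Both TGFβ groups lay above both others, with effects of 0.69 (adjusted p 1.94e-10, SE 0.058) without Pam3 and 1.2 (adjusted p 5.48e-15, SE 0.0586) with it. Pam3 raised it with TGFβ (log2 fold change 0.29, adjusted p 0.000219, SE 0.0571) and lowered it without (log2 fold change -0.22, adjusted p 0.00881, SE 0.0587), the latter with an adjusted p of 0.0569 without Pam3 replicate 2. The plasma membrane nucleoside transporter Slc29a1 (ENT1) fell with Pam3 from 129 ± 6.53 to 104 ± 0.926 CPM (log2 fold change -0.31, adjusted p 4.64e-05, SE 0.05), and the lysosomal Slc29a3 (ENT3) fell with TGFβ from 103 ± 4.96 to 73.1 ± 1.02 CPM (log2 fold change -0.49, adjusted p 3.3e-08, SE 0.0544). Slc28a2, a sodium-coupled nucleoside importer, had counts of 18, 35 and 10 untreated, none with TGFβ, 19, 14 and 11 with Pam3 and 4, 0 and 0 with both. It reached the minimum only without TGFβ, so no fold is given.

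Of the 5 members that carry fatty acids and bile acids, the fatty acid transporters Slc27a4 and Slc27a3 had no called change. Slc27a1 stood at 43.4 ± 2.17 CPM untreated, 50.5 ± 3.11 with TGFβ, 37.4 ± 0.971 with Pam3 and 40.4 ± 2.35 with both, and its Pam3 response with TGFβ was -0.32 (adjusted p 0.000276, SE 0.0651). Slc27a6 had counts of 41, 48 and 41 untreated, 0, 4 and 0 with TGFβ, 17, 22 and 11 with Pam3 and none with both agents, and it too reached the minimum only without TGFβ. Slc38a4, the member that did not enter the test, had counts of 10, 0 and 10 untreated and 14, 9 and 2 with Pam3 and none in either TGFβ group. Among other members of low or middling counts, Slc8a2, Slc23a1, Slc25a23, Slc35g3 and Slc39a12 had calls that were each lost in at least 2 of the 12 fits that left out 1 library, and no change is stated for them. The fitted fold changes of genes with a group at 0 depend on a prior count and are not bounds.

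TGFβ without Pam3 lowered 7 of 12 carriers of nucleotide sugars to the Golgi and raised 0, while 28.1% of all tested genes were called lower. Of the 7, Slc35b2 lost the call in 10 of the 12 fits that left out 1 library and had an adjusted p of 0.313 without the 3 libraries that stand apart. Slc35a2, named after its values were seen, had an adjusted p of 0.112 without untreated replicate 2, 0.078 without TGFβ replicate 1 and 0.208 without TGFβ replicate 2. It had 0.197 without those 3. Slc35c1 had an adjusted p of 0.0911 without untreated replicate 1, 0.0851 without TGFβ replicate 1 and 0.056 without TGFβ replicate 2. Slc35c1, for GDP-fucose, was the most abundant per kilobase and stayed between 121 ± 1.84 and 137 ± 8.27 CPM. The largest change was in Slc35d2, named after its values were seen, which measured 12.9, 14 and 16.2 CPM in the untreated libraries, 4.93, 5.09 and 5.37 with TGFβ, 13.3, 16.2 and 14.8 with Pam3 and 7.36, 8.22 and 7.41 with Pam3+TGFβ. The 6 libraries with TGFβ lay below the 6 without it, with effects of -1.48 (adjusted p 2.49e-11, SE 0.112) and -0.94 (adjusted p 5.96e-08, SE 0.108). Slc35a4 fell with TGFβ alone by 0.22 (adjusted p 0.00162, SE 0.0542). Slc35b2, for the sulphate donor PAPS, fell with Pam3 alone from 56.8 ± 1.85 to 46 ± 2.59 CPM (log2 fold change -0.3, adjusted p 0.0008, SE 0.0616). Among the 18 members placed in no substrate class, TGFβ without Pam3 raised 4 and lowered 7, beside 22.9% and 28.1% of all tested genes. The 7 kept the call in all 12 fits that left out 1 library, and 1 of the 4 did. Slc45a4, named after its values were seen, fell from 67.6 ± 3.00 to 29 ± 1.42 CPM (log2 fold change -1.22, adjusted p 6.44e-15, SE 0.0608) and with Pam3 from 65.5 ± 1.19 to 25.6 ± 0.748 (log2 fold change -1.36, adjusted p 1.16e-15, SE 0.0613). Slc45a3 had counts of 21, 25 and 25 untreated, 0, 0 and 2 with TGFβ, 20, 21 and 10 with Pam3 and 3, 4 and 4 with both. Slc45a3 passed the filter only through the groups without TGFβ and could only be called lower with it. Its place among the 7 does not count as support, and no fold is given. Slc35f6 fell with TGFβ by 0.46 without Pam3 and 0.44 with it (adjusted p 4.92e-09 and 1.17e-08). Slc35b1, an exchanger of ATP and ADP across the membrane of the endoplasmic reticulum, fell with TGFβ alone from 52.1 ± 1.85 to 42.5 ± 2.93 CPM (log2 fold change -0.29, adjusted p 0.000283, SE 0.0615). Slc35g1 fell with Pam3 in the presence of TGFβ, from 36.1 ± 1.69 to 25.8 ± 0.561 CPM (log2 fold change -0.49, adjusted p 3.74e-06, SE 0.0708). Slc35e1 had no called change in any comparison.

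The interaction, which is positive where Pam3 acted more upward in the presence of TGFβ, was called for 41 of 213 members (19.2%), against 15.9% of all tested genes. It was higher for 27 (12.7%, against 10.3% of all genes) and lower for 14 (6.57%, against 5.67%). Upper-quartile scaling gave 24 higher and 19 lower, and without the 3 libraries that stand apart there were 24 higher and 9 lower. By class, the metal transporters had 7 higher and 1 lower, amino acid transporters 4 and 5, mitochondrial carriers 4 and 1, vitamin transporters 3 and 0 and inorganic ion transporters 2 and 3.

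**Figure D4:**
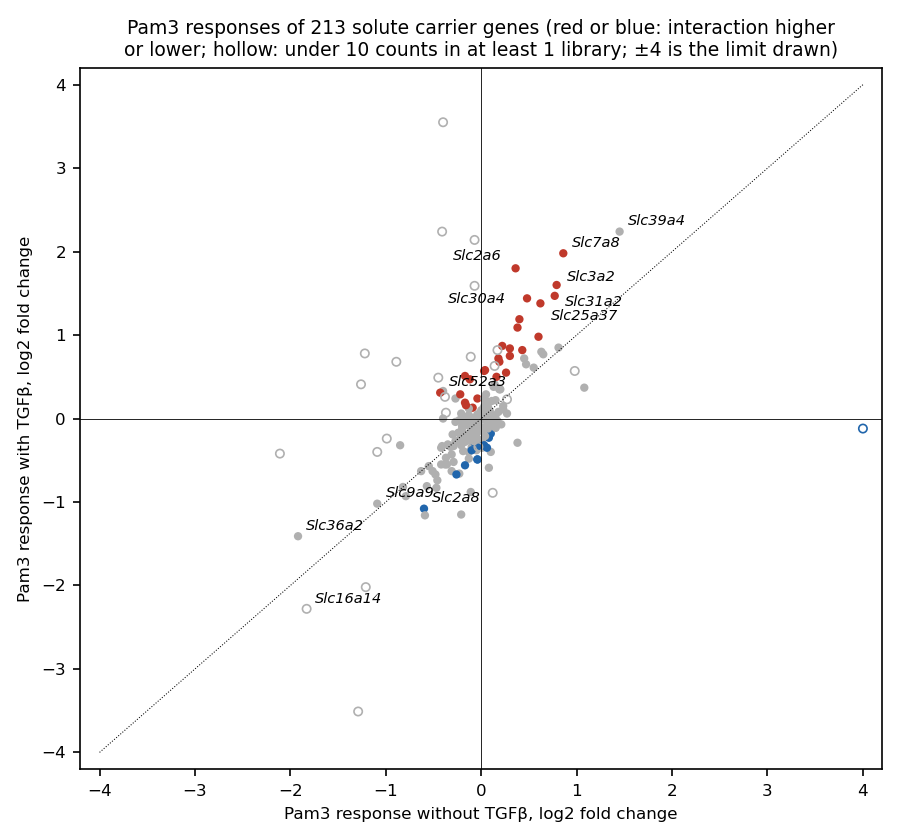
Log2 fold change by Pam3 without TGFβ (x axis) and with TGFβ (y axis) for 213 solute carrier genes; points are genes, red or blue where the interaction was called higher or lower, hollow where at least 1 library had under 10 counts, and values beyond 4 are drawn at 4. The red points above the dotted line of equal responses include Slc7a8, Slc2a6, Slc3a2, Slc31a2, Slc30a4 and Slc25a37, and Slc52a3 is lower without TGFβ and higher with it.

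Genes beside the members give the setting. Of 40 tested transporter genes of the kind that carry other symbols, TGFβ without Pam3 raised 11 and lowered 14, Pam3 without TGFβ raised 4 and lowered 9, and Pam3 with TGFβ raised 6 and lowered 15. The shares of all tested genes, higher and lower, were 22.9% and 28.1%, 9.62% and 8.66%, and 20.4% and 18.1% in the same order. Among 28 tested genes of the amino acid response, which includes targets of the transcription factor ATF4, Pam3 raised 1 and lowered 2 without TGFβ and raised 8 and lowered 5 with it, while TGFβ without Pam3 raised 4 and lowered 12, to be read beside the same shares. Their medians were -0.06, 0.06 and -0.19 on the log2 scale in that order, beside -0.05, -0.05 and -0.17 for the members.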

How the data were processed

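RNA of 12 libraries, 3 in each of 4 groups, was sequenced from a stranded mRNA kit, per the labels' protocols. Bowtie2 2.4.1, which does not splice reads, was the aligner named by the authors for GRCm39, after FastQC 0.11.7, and featureCounts of Subread 2.0.0 made the counts, per the submitters' processing notes. Their annotation, strand setting and handling of multiply aligned reads are not given in the sources used here. The authors deposited raw read counts per gene, which were the main input. The deposited normalized signal is each count divided by 1 constant per library, and the authors' DESeq2 1.36.0 in R 4.2.1 is named in the submitters' processing notes.

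Counts were tested with edgeR 4.0.16 in R 4.3.3 (filterByExpr with a minimum count of 10, TMM, robust quasi-likelihood test, 4 group means, no block) over all 12 libraries, and p-values were adjusted by Benjamini-Hochberg over 14749 genes in each of 5 contrasts. CPM used TMM-scaled library sizes, and CPM per kb used exon lengths of GENCODE M39 on GRCm39, whose coordinates are printed. The test was run on simulated counts in which far fewer genes changed than were called here, all in Pam3+TGFβ. Of 98 genes changed by 1 on the log2 scale, it recovered 78 for Pam3 with TGFβ, 80 for TGFβ with Pam3 and 75 for the interaction. False calls were 13 of 181, 7 of 175 and 8 of 167 in that order. The precision of CPM is given by the SD over 3 libraries. Replicates of a group differed beyond counting noise (chi-square per degree of freedom 9.99 to 220.0), which does not show that they are separate cultures. Each library was counted as a replicate.

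The members, their 12 substrate classes and the gene lists were chosen with earlier results of these data known. Named genes were the 3 most abundant members per kb of each class, a set of members known in macrophages, and for each contrast and direction the 8 called members that changed most, with 10 counts or more throughout the higher group and, except for the interaction, no overlap between groups. Members outside this rule are marked as named after their values were seen, and a few genes within it are not reported here. Alternatives were other scalings (DESeq2-type size factors, upper quartile), DESeq2 1.42.0, limma 3.58.1 on the deposited normalized signal (log2, pseudocount 1), other count filters, the replicate number as a block, and leaving out each library.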

Additional observations from a re-analysis of the deposited data

Results flagged for a closer look

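For 31 of the named members a difference in Pam3 response between media with and without TGFβ was called by the test of that difference itself (edgeR's quasi-likelihood test, Benjamini-Hochberg adjusted over 14749 genes). Each value is the interaction on the log2 scale, positive where the response was higher with TGFβ, from 3 libraries a group.

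Higher responses with TGFβ were found for the sugar transporters Slc2a6 (1.44) and Slc37a2 (0.36), for the amino acid carriers Slc7a8 (1.12), Slc3a2 (0.8), Slc6a8 (0.53) and Slc16a10 (0.38), and for the metal transporters Slc30a4 (0.96), Slc31a2 (0.7), Slc39a14 (0.54) and Slc39a1 (0.28). The mitochondrial carriers Slc25a37 (0.76), Slc25a22 (0.71) and Slc25a4 (0.22), the vitamin and choline transporters Slc52a3 (0.74), Slc23a2 (0.65) and Slc44a1 (0.39), the phosphate importer Slc20a1 (0.8), the purine importer Slc43a3 (0.51) and Slc35b1 (0.28) were also higher.

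Lower responses with TGFβ were found for the amino acid transporters Slc43a2 (-0.41), Slc38a1 (-0.41), Slc36a1 (-0.39), Slc7a5 (-0.32) and Slc1a5 (-0.23). The ion transporters Slc8b1 (-0.45) and Slc12a7 (-0.25), the zinc transporter Slc39a10 (-0.34), and Slc2a8 (-0.48), Slc35g1 (-0.45) and Slc16a1 (-0.31) were also lower. The fitted value of Slc9c1 (-5.1) rests on no count in untreated libraries and on a filter passed through the groups with TGFβ, and no change is stated for it.

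Leaving out single libraries ended some of these calls. The adjusted p of Slc1a5 was 0.0678 without Pam3 replicate 1, 0.0885 without Pam3 replicate 2, 0.0611 without Pam3 replicate 3, 0.0623 without Pam3+TGFβ replicate 1 and 0.108 without untreated replicate 3. The adjusted p of Slc35b1 was 0.0995 without Pam3+TGFβ replicate 2, 0.0631 without Pam3+TGFβ replicate 3, 0.0833 without TGFβ replicate 2 and 0.13 without TGFβ replicate 3, and that of Slc39a10 was 0.0668 without Pam3 replicate 1, 0.0583 without untreated replicate 2 and 0.0589 without TGFβ replicate 2. Slc2a8 lost the call in 8 of 12 such fits, Slc16a1 in 9, Slc25a4 in 10 and Slc9c1 in 11, with adjusted p up to 0.138, 0.133, 0.205 and 0.202. That of Slc9c1 was also lost with DESeq2-type size factors (0.0501) and limma (0.218). Upper-quartile scaling ended the calls of Slc25a4 (adjusted p 0.124) and Slc35b1 (0.0689). The calls of Slc16a1 (0.0516) and Slc2a8 (0.0531) ended with limma, and that of Slc16a1 also with no filter (0.0627). The other 24 kept the call in all 12. Without the 3 libraries that stand apart together (untreated replicate 3, TGFβ replicate 2 and Pam3 replicate 1), adjusted p was 0.142 for Slc1a5, 0.117 for Slc35b1, 0.1 for Slc39a10, 0.141 for Slc2a8, 0.169 for Slc16a1, 0.0796 for Slc44a1 and 0.0838 for Slc9c1.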

How the results depend on the processing

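No called direction of a named member reversed under any alternative. Over settings that left out no single library (DESeq2-type size factors, upper-quartile scaling, DESeq2, limma on the authors' normalized values, no filter, 10 counts in every library, the replicate block, and, chosen after seeing the data, leaving out the 3 libraries that stand apart), the members called numbered 47 to 58, 98 to 111, 110 to 130, 122 to 138 and 33 to 44 in the order Pam3 without and with TGFβ, TGFβ without and with Pam3, and interaction. Leaving out 1 library gave 39 to 56, 90 to 112, 120 to 131, 118 to 138 and 36 to 42. Members called lower by Pam3 without TGFβ numbered 29, and 18 to 34 when 1 library was left out, the lowest without Pam3 replicate 2; those with a lower interaction numbered 14, 10 to 16 when 1 library was left out, and 9 without the 3 libraries that stand apart. The cause was not tested, beyond the smaller number of libraries. Of 278 called values of named members, 50 lost the call under at least 1 alternative, and 32 under one that left out no single library.

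Replicate numbers recur across groups. Deviations from group means correlated at -0.174 to 0.3 between libraries of the same number (7 of 18 pairs over 0.1). Between others they correlated at -0.397 to 0.323 (8 of 36). These values overlap and do not settle whether equal numbers mark pairs. The labels state no pairing, and the main test used none. With the replicate block, 53, 107, 130, 134 and 41 members were called, and the Slc2a8 interaction lost the call (adjusted p 0.0591). Depth limited 26 members with fewer than 10 counts in at least 1 library.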
